A study of Mus musculus with 8 samples.

Results

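The enzymes of fatty acid breakdown in peroxisomes were followed in the hypothalamus of mice whose brain peroxisomes cannot import their enzymes. The set held Phyh, Amacr, Acox3, Hsd17b4, Ehhadh, Acaa1a, Scp2, Acot8 and Crot, chosen by gene name as enzymes of this pathway. All 9 of 9 genes were measured, by 16 of the 45101 probe sets of the array, and they were 9 of the 18194 genes that had a probe set paired with that gene alone. A gene with several such probe sets was represented by the one with the highest mean over the 8 arrays, and the others are given beside it.

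RNA came from the hypothalamus of 4 Nestin-Pex5-/- mice and of 4 wild type mice, all 10 weeks of age, untreated and kept under normal conditions. Nestin-Pex5-/- mice were bred from Nestin-Cre and Pex5-loxP mice and carried on a Swiss Webster background, so that Pex5, the import receptor for enzymes of the peroxisomal matrix, is deleted in cells that arise from Nestin-positive neural progenitors. Neurons, astrocytes and oligodendrocytes arise from these progenitors, whereas microglia do not. Each mouse gave 1 array (Affymetrix whole-genome mouse array), with Nestin-Pex5-/- replicates numbered 7 to 10 and wild type replicates numbered 1 to 4.

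Peroxisomes shorten fatty acids that mitochondria handle poorly, such as very long straight chains, chains with methyl branches and the side chains of bile acid precursors. Phytanic acid, a branched fatty acid from the diet, first loses 1 carbon by alpha-oxidation. Beta-oxidation then repeats an oxidase step, a hydratase and dehydrogenase step on 1 bifunctional protein and a thiolase step, after which the shortened chains leave as free acids or as carnitine esters. The enzymes are made in the cytosol and carried in by Pex5, either directly through a signal at their C-terminus or, for Phyh and Acaa1a, through an N-terminal signal read by the coreceptor Pex7, which in mammals also needs Pex5. The arrays read mRNA, not where the protein lies or whether it is active.

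Pex5 itself was looked at first. Its brighter probe set (1426770_at) read 8.76, 8.68, 8.58 and 8.66 in Nestin-Pex5-/- replicates 7 to 10, against 8.62, 8.68, 8.63 and 8.70 in wild type replicates 1 to 4, on the log2 scale of the deposited RMA values. The groups overlapped, and the log2 fold change (Nestin-Pex5-/- relative to wild type) was 0.01 (95% interval -0.12 to 0.14, limma adjusted p = 0.946). The other Pex5 probe set (1422063_a_at) gave a log2 fold change of -0.07 (adjusted p = 0.756). Whether the probes fall in the deleted stretch of Pex5 is not known here, so these values do not check the genotype. Pex7 had a log2 fold change of -0.02 (95% interval -0.17 to 0.13, adjusted p = 0.919).

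None of the 9 enzymes passed the test between genotypes. In the limma fit over all 18194 genes, 0 of 9 were called higher and 0 of 9 lower in Nestin-Pex5-/- hypothalamus at an adjusted p under 0.05, where 3.98% of all genes were called higher and 0.791% lower. Before adjustment, 3 of 9 had a p under 0.05 and a higher mean (Acox3, Hsd17b4 and Crot), beside 8.85% of all genes, and 0 of 9 had a lower mean, beside 8.01%. In 1 of 9, Crot, every Nestin-Pex5-/- array lay above every wild type array, as in 6.63% of all genes, and in 0 of 9 every Nestin-Pex5-/- array lay below, as in 4.51% of all genes.

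The differences were small. The fold change was positive for 6 enzymes and negative for 3, beside 6968 positive and 11226 negative over all genes. The median log2 value was 0.0295, beside -0.0334 over all genes. Of the 9 directions, 2 depended on scaling, since Scp2 turned negative when the arrays were centred on their medians and Acot8 positive when they were scaled to reference genes. The median size of the log2 fold change, signs left aside, was 0.0646 for the enzymes and 0.0858 for all genes. Each fold change had a standard error between 0.0566 and 0.131 on the log2 scale. All of the 95% intervals lay within 0.852- to 1.52-fold of wild type, and 3 of the 9 did not include no change. In order of fold change, Acox3 (1.24-fold) and Crot (1.20-fold) came first, then Ehhadh (1.12-fold), Hsd17b4 (1.10-fold), Acaa1a (1.02-fold), Scp2 (1.01-fold), Acot8 (0.984-fold), Amacr (0.969-fold) and Phyh (0.956-fold), and the intervals of neighbours in this order overlapped. Levels of the 9 enzymes were not ranked against each other, since probe sets differ in how strongly they bind. Percentiles of level over all genes, given for Amacr and Ehhadh, only mark dim signal. In whole tissue, fewer cells of a type and less RNA per cell cannot be told apart.

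**Figure D1:**
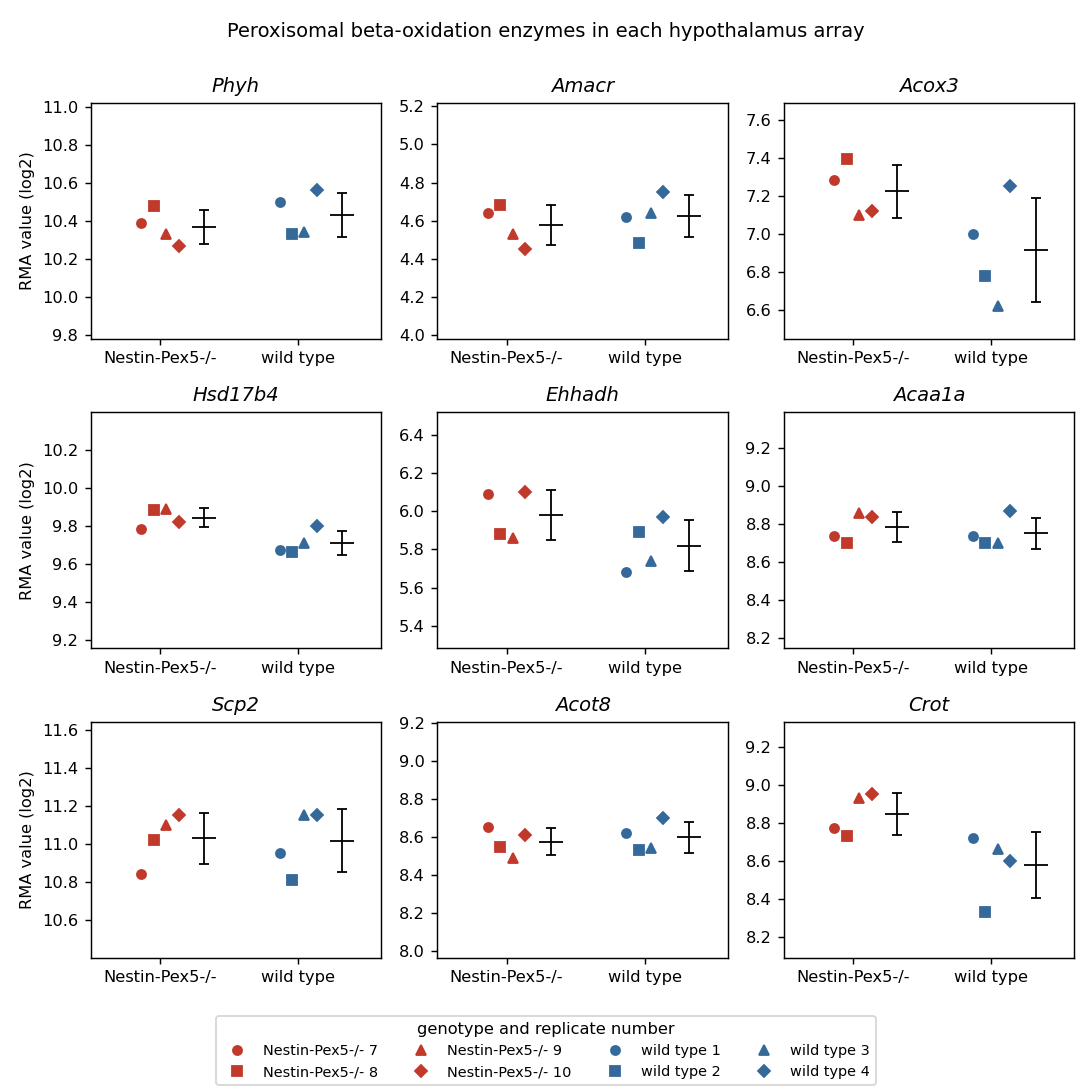
RMA value on the log2 scale (vertical axis, the same span in every panel) of each enzyme in the 4 Nestin-Pex5-/- arrays (left, red) and the 4 wild type arrays (right, blue), with the mean and SD beside the points. Crot was the only enzyme whose groups did not overlap, with 8.73 to 8.95 in Nestin-Pex5-/- and 8.33 to 8.72 in wild type.

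Acox3 and Crot had the smallest p among the 9, and the DNA just before a RefSeq transcript start of each is shown so that the sequence behind these genes can be read. The RefSeq promoter table (GRCm38.p6) held 7 of the 9 enzymes. Both sequences are 250 bases, 5′ to 3′ on the gene's own strand, and end at the base before the transcript start of the table. Capitals mark the GC box GGGCGG, the core letters bound by Sp1-type factors, read on either strand. The Crot sequence lies on the minus strand at chr5:8997147-8997396, directly before the annotated gene. That of Acox3 lies on the plus strand at chr5:35582784-35583033, and its last bases fall inside the annotated gene, which starts within the window.
Crot: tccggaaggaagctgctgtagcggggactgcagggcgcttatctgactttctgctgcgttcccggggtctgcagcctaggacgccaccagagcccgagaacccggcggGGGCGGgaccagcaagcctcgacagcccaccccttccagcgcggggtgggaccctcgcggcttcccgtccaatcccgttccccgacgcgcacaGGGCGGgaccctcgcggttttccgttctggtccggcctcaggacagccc
Acox3: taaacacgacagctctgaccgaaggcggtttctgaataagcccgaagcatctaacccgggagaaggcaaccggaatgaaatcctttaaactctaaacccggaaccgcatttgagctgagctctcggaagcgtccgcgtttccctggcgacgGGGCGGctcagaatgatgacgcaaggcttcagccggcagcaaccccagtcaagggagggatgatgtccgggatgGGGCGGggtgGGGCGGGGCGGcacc
The Crot sequence is 69.6% G and C and holds 2 GC boxes, and that of Acox3 is 60% G and C and holds 4, of which the last pair overlap.

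The table places each window before a transcript start, which need not be the start of the annotated gene. The windows of Acaa1a, Acot8 and Scp2 lie wholly inside the gene, before a start within it, that of Acox3 partly, and those of Crot, Ehhadh and Phyh outside. Among these 7 sequences, GGGCGG on either strand occurred in 6 (all but Phyh), beside 32.7% of the 32851 sequences of the table. CCAAT occurred in 4 (Acot8, Crot, Acaa1a and Ehhadh), beside 33.8%, and TATAAA in 0, beside 12.4%. AGGTCA, the half-site of many nuclear receptors, occurred only in the Scp2 window, inside the gene, beside 14.0% of all sequences. PPAR receptors bind a direct repeat of that half-site with 1 base between, through which several of these enzymes are induced in rodent liver. The exact repeat, the only form searched, occurred in 0 of 7 and in 0.0335% of all sequences. At so low a share 0 of 7 could hardly come out otherwise, so nothing is read from it. A match or its absence describes the letters of this window only.

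Phyh (phytanoyl-CoA hydroxylase, chr2:4918996-4938743), the alpha-oxidation enzyme lost in human Refsum disease, had no detectable difference. Its probe set 1460194_at read 10.39, 10.48, 10.33 and 10.27 in Nestin-Pex5-/- replicates 7 to 10 and 10.50, 10.33, 10.34 and 10.56 in wild type replicates 1 to 4. Wild type replicates 4 and 1 were the highest and Nestin-Pex5-/- replicate 10 the lowest, with the other arrays mixed. The mean was 10.37 ± 0.0892 in Nestin-Pex5-/- and 10.43 ± 0.114 in wild type arrays (SD, n = 4 each), a log2 fold change of -0.06 (95% interval 0.852- to 1.07-fold, limma adjusted p = 0.701). The exact two-sided permutation p over the 70 assignments of the arrays was 0.343.

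Amacr (alpha-methylacyl-CoA racemase, chr15:10981756-10996624) turns the branched acyl-CoAs made from phytanic acid and the bile acid precursors into the form that the oxidases accept. It was dim on these arrays, with a mean level at the 12.8th percentile of all genes, and the share of background in such values is unknown. Probe set 1417208_at read 4.64, 4.68, 4.53 and 4.45 in Nestin-Pex5-/- mice, against 4.62, 4.48, 4.64 and 4.75 in wild type mice. Both groups covered nearly the same range. The log2 fold change was -0.05 (95% interval 0.859- to 1.09-fold, limma adjusted p = 0.811).

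Acox3 (the peroxisomal oxidase of pristanoyl-CoA and other branched chains, chr5:35582981-35614208) had the largest fold change of the 9 when each gene was read by its brightest probe set. Its brighter probe set (1420684_at) read 7.28, 7.39, 7.10 and 7.12 in Nestin-Pex5-/- replicates 7 to 10, against 7.0, 6.78, 6.62 and 7.25 in wild type replicates 1 to 4. Every Nestin-Pex5-/- array lay above wild type replicates 1, 2 and 3, while wild type replicate 4 lay within the Nestin-Pex5-/- range. The mean was 7.22 ± 0.136 in Nestin-Pex5-/- and 6.91 ± 0.276 in wild type arrays (SD, n = 4 each), a log2 fold change of 0.31 (95% interval 1.01- to 1.52-fold) that did not pass over all genes (limma adjusted p = 0.269, exact permutation p = 0.114).

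The dimmer Acox3 probe set (1437352_at) did not move with it. It read 5.70, 5.90, 5.81 and 5.97 in Nestin-Pex5-/- mice and 5.91, 6.02, 5.78 and 5.77 in wild type mice, a log2 fold change of -0.03 (adjusted p = 0.921 over all probe sets). Taking the mean of both probe sets as the gene's value gave 0.14 (limma adjusted p = 0.401), so the value of Acox3 depended on which probe set was read.

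Hsd17b4 (multifunctional protein 2, also called D-bifunctional protein, chr18:50128201-50196270) is the bifunctional enzyme that straight and branched chains both need. Its brighter probe set (1417369_at) read 9.78, 9.88, 9.89 and 9.82 in Nestin-Pex5-/- mice and 9.67, 9.66, 9.71 and 9.80 in wild type mice. The groups overlapped by 1 array on each side, wild type replicate 4 and Nestin-Pex5-/- replicate 7. With a mean of 9.84 ± 0.0518 in Nestin-Pex5-/- and 9.71 ± 0.0632 in wild type arrays (SD, n = 4 each) the log2 fold change was 0.13, with the smallest standard error of the 9 (0.0566) and a 95% interval of 0.01 to 0.26 (limma adjusted p = 0.276, exact permutation p = 0.0571). A second probe set (1455777_x_at) gave a log2 fold change in the same direction, 0.20 (adjusted p = 0.549), with 9.35, 9.52, 9.58 and 9.54 in Nestin-Pex5-/- mice and 9.25, 8.97, 9.33 and 9.63 in wild type mice. In it, too, wild type replicate 4 was the highest of its group.

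Ehhadh (multifunctional protein 1, the L-bifunctional enzyme, chr16:21761285-21787834) carries out the same pair of reactions through the other stereoisomer and is best known as a gene induced in liver. Its probe set 1448382_at stood at the 27.9th percentile of all genes and read 6.09, 5.88, 5.86 and 6.10 in Nestin-Pex5-/- mice, against 5.68, 5.89, 5.74 and 5.97 in wild type mice. Nestin-Pex5-/- replicates 7 and 10 lay above every wild type array, and replicates 8 and 9 lay within the wild type range. The mean was 5.98 ± 0.131 in Nestin-Pex5-/- and 5.82 ± 0.134 in wild type arrays (SD, n = 4 each), a log2 fold change of 0.16 (95% interval 0.976- to 1.28-fold, limma adjusted p = 0.397). The difference Hsd17b4 minus Ehhadh within an array, which shows how the bifunctional enzymes moved against each other, was 3.86 ± 0.180 in Nestin-Pex5-/- and 3.89 ± 0.107 in wild type arrays (log2, SD, n = 4 each), and the ranges overlapped.

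Acaa1a (peroxisomal 3-ketoacyl-CoA thiolase A, chr9:119341028-119350296), the thiolase of straight chains, was read by several probe sets with unlike values. The brightest one paired with it alone (1456737_x_at) read 8.74, 8.70, 8.86 and 8.84 in Nestin-Pex5-/- mice and 8.74, 8.70, 8.70 and 8.87 in wild type mice, a log2 fold change of 0.03 (95% interval 0.924- to 1.13-fold, limma adjusted p = 0.855). A dim second one (1456011_x_at) gave 0.14 (adjusted p = 0.546 over all probe sets). Both names carry an x, which marks probes that can bind related transcripts.

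Another pair of probe sets are annotated to Acaa1a and to its close copy Acaa1b, so their signal cannot be divided between these genes. The first (1416946_a_at) read 8.42, 8.50, 8.46 and 8.43 in Nestin-Pex5-/- mice and 8.27, 8.16, 8.15 and 8.49 in wild type mice, a log2 fold change of 0.19 (adjusted p = 0.378 over all probe sets). The other (1416947_s_at) read 8.98, 9.04, 9.11 and 9.07 in Nestin-Pex5-/- mice and 8.88, 8.82, 8.80 and 9.03 in wild type mice, a log2 fold change of 0.16 (adjusted p = 0.338). In both, every Nestin-Pex5-/- array lay above wild type replicates 1 to 3, while wild type replicate 4 lay within the Nestin-Pex5-/- range.

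Scp2 (chr4:108043830-108144971) makes the thiolase of branched chains, SCPx, and the smaller sterol carrier protein 2 from the same gene, and which of these transcripts each probe set reads is not known here. The brightest probe set (1449686_s_at) read 10.84, 11.02, 11.10 and 11.15 in Nestin-Pex5-/- mice and 10.95, 10.81, 11.15 and 11.15 in wild type mice. Arrays of both groups spread over the same range, and the log2 fold change was 0.01 (95% interval 0.866- to 1.17-fold, limma adjusted p = 0.968). The other 3 probe sets gave log2 fold changes of -0.02 (1426219_at, adjusted p = 0.915), 0.05 (1419975_at, adjusted p = 0.849) and -0.18 (1419974_at, adjusted p = 0.591). Acaa1a minus Scp2 within an array was -2.24 ± 0.102 in Nestin-Pex5-/- and -2.26 ± 0.146 in wild type arrays (log2, SD, n = 4 each), and the ranges overlapped.

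Acot8 (chr2:164792768-164820219) is a broad peroxisomal thioesterase that releases fatty acids and bile acids from coenzyme A. Probe set 1417449_at read 8.65, 8.55, 8.49 and 8.61 in Nestin-Pex5-/- mice and 8.62, 8.53, 8.54 and 8.70 in wild type mice. The groups overlapped over most of their range, with a log2 fold change of -0.02 (95% interval 0.893- to 1.08-fold, limma adjusted p = 0.885).

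Crot (carnitine O-octanoyltransferase, chr5:8966033-8997146) hands shortened chains to carnitine for export to mitochondria. Its brighter probe set (1450966_at) read 8.77, 8.73, 8.93 and 8.95 in Nestin-Pex5-/- replicates 7 to 10, against 8.72, 8.33, 8.66 and 8.60 in wild type replicates 1 to 4. The lowest Nestin-Pex5-/- array exceeded the highest wild type array by a narrow margin, and wild type replicate 2 was the lowest of the 8. The mean was 8.85 ± 0.112 in Nestin-Pex5-/- and 8.58 ± 0.170 in wild type arrays (SD, n = 4 each), a log2 fold change of 0.27 (95% interval 1.04- to 1.39-fold). The exact two-sided permutation p was 0.0286, the smallest that 4 against 4 arrays can give, while the limma adjusted p over all genes was 0.172. Without wild type replicate 2 the log2 fold change was 0.19.

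The second Crot probe set (1440474_at) was dimmer and gave a log2 fold change of -0.08 (adjusted p = 0.809 over all probe sets). It read 6.51, 6.31, 6.61 and 6.70 in Nestin-Pex5-/- mice and 6.37, 6.53, 6.76 and 6.80 in wild type mice. The mean of both probe sets gave 0.09 (limma adjusted p = 0.649), so in Crot, as in Acox3, the brighter probe set gave a positive difference and the dimmer one did not. Acot8 minus Crot within an array was -0.27 ± 0.148 in Nestin-Pex5-/- and 0.02 ± 0.153 in wild type arrays (log2, SD, n = 4 each), and the ranges overlapped.

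**Figure D2:**
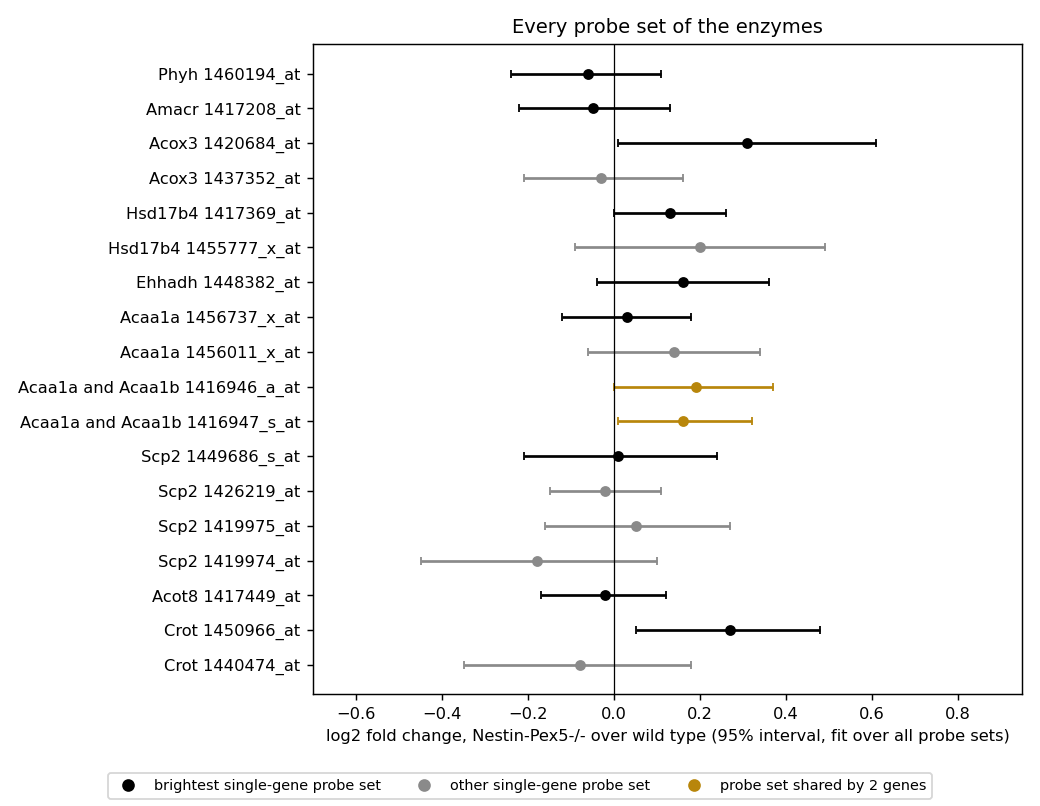
Log2 fold change (Nestin-Pex5-/- relative to wild type, horizontal axis) with its 95% interval for each probe set of the 9 enzymes, from the fit over all probe sets (4 arrays per genotype). Black points are the brightest single-gene probe set of a gene, grey points the others and ochre points the pair shared by Acaa1a and Acaa1b; for Acox3 the probe sets lie at 0.31 and -0.03, and for Crot at 0.27 and -0.08.

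Wild type replicate 4 stood apart from the other wild type arrays and bore on several of these values. On the second principal component of the arrays (18.7% of the variance) it scored 29.1, against -9.98 to -5.07 in wild type replicates 1 to 3. It was the highest wild type array in 8 of the 9 enzymes (all but Crot), beside 52.2% of all genes. The median distance of this array above the mean of wild type replicates 1 to 3 was 0.172 for the enzymes and 0.0947 for all genes, on the log2 scale.

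As wild type replicate 4 was the highest wild type array in 8 of 9 enzymes, leaving it out had to raise their fold changes. A pass reached in this way is no separate support for a difference. With that array left out, Acox3 passed the test. Its mean was 7.22 in 4 Nestin-Pex5-/- arrays and 6.80 in 3 wild type arrays, a log2 fold change of 0.43 (95% interval 0.19 to 0.66, limma adjusted p = 0.0436). It was then the only 1 of the 9 called higher, beside 5.93% of all genes. Acox3, Hsd17b4 and Crot were then above every wild type array in every Nestin-Pex5-/- array, which is 3 of 9 beside 11.7% of all genes. Hsd17b4 had a log2 fold change of 0.16 (adjusted p = 0.112), Ehhadh of 0.21 (adjusted p = 0.202) and Crot of 0.28 (adjusted p = 0.166) without it, whereas those of Phyh, Amacr, Acaa1a, Scp2 and Acot8 lay between -0.02 and 0.07. In another fit every array was kept and given a limma array weight, so more than wild type replicate 4 could be weighted down. The weights themselves were not examined. Hsd17b4 (0.17, adjusted p = 0.0481) and Crot (0.33, adjusted p = 0.0491) then passed and Acox3 did not (0.31, adjusted p = 0.0802). Thus 2 of 9 were called higher, beside 7.43% of all genes. Over all alternatives tried, the adjusted p ran from 0.0436 to 0.484 for Acox3, from 0.0481 to 0.475 for Hsd17b4, from 0.202 to 0.611 for Ehhadh and from 0.0491 to 0.649 for Crot.

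**Figure D3:**
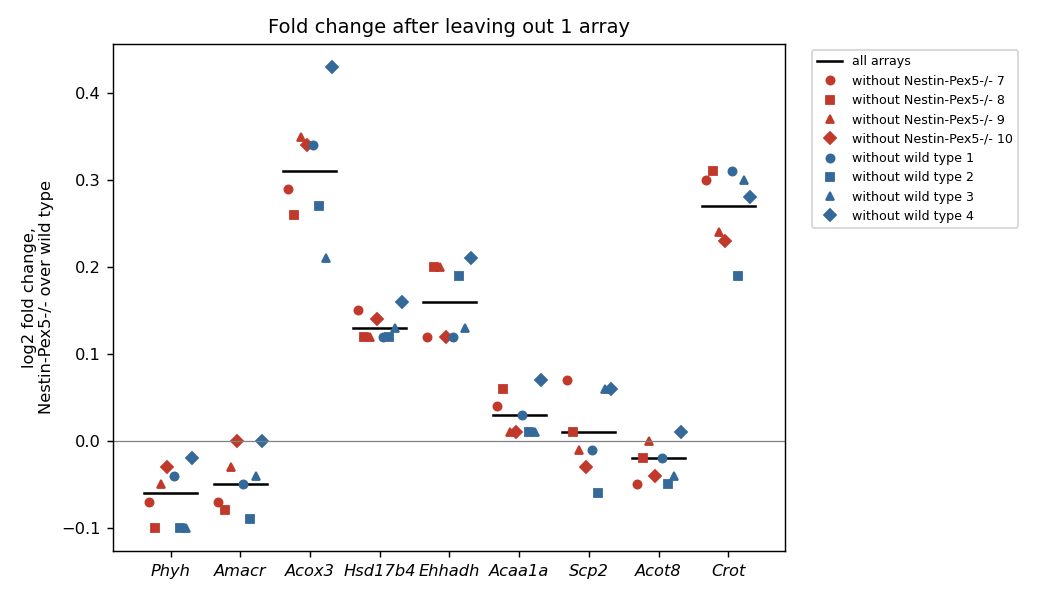
Log2 fold change (Nestin-Pex5-/- relative to wild type, vertical axis) of each enzyme with all 8 arrays (black line) and after leaving out each array in turn (red, a Nestin-Pex5-/- array left out; blue, a wild type array left out). Leaving out wild type replicate 4 (blue diamond) gave the largest value for Acox3, 0.43, and leaving out wild type replicate 3 (blue upward triangle) the smallest, 0.21.

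The tissue and its cell makeup were checked with marker lists. Of the hypothalamic neuropeptides, Hcrt averaged 10.59 in each genotype, Avp 11.52 in each, Pmch 12.51 in Nestin-Pex5-/- and 12.64 in wild type, Oxt 11.05 in Nestin-Pex5-/- and 11.46 in wild type, and Trh, the dimmest, 7.75 in Nestin-Pex5-/- and 8.13 in wild type. None of these passed the test (limma adjusted p = 0.334 for Oxt and 0.506 for Trh). Over all genes 3.98% were called higher, and before adjustment 8.85% were higher and 8.01% lower. Of the microglia and macrophage markers 10 of 11 were called higher, and their mean log2 value was 9.60 to 10.00 in Nestin-Pex5-/- arrays, against 7.71 to 7.90 in wild type arrays. Astrocyte markers were called higher in 3 of 10 (11.54 to 11.67 in Nestin-Pex5-/-, 11.00 to 11.26 in wild type). These were Gfap (log2 fold change 2.76), Aqp4 (1.11) and Sox9 (0.50), while the 7 not called lay between -0.14 and 0.29. Those of neurons were called higher in 0 of 12, with 1 higher and 2 lower before adjustment (12.29 to 12.33 in Nestin-Pex5-/-, 12.28 to 12.39 in wild type). Oligodendrocyte and myelin markers had positive fold changes in 11 of 11, beside 6968 of all 18194 genes. Of these markers 0 were called and 7 had an unadjusted p under 0.05. Their means were 11.45 to 11.95 in Nestin-Pex5-/- arrays and 11.01 to 11.76 in wild type arrays.

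Wild type replicate 4, at 11.76, was the wild type array with the most myelin marker signal, the others lying at 11.25, 11.01 and 11.07, as it was the highest in Acox3. For Acox3, Nestin-Pex5-/- arrays did not share this order. In replicates 7 to 10 the myelin markers averaged 11.45, 11.71, 11.95 and 11.88, while Acox3 read 7.28, 7.39, 7.10 and 7.12. Hsd17b4, at 9.78, 9.88, 9.89 and 9.82, was lowest in replicate 7 and highest in replicate 9, as the myelin markers were. The enzymes thus differed in this, and the others were not set against the markers. Wild type replicate 4 was also the lowest in choroid plexus and ependyma markers, at 7.37, against 8.07 to 8.68 in Nestin-Pex5-/- arrays and 8.73 to 9.12 in the other wild type arrays. Nestin-Pex5-/- replicates also divided. On the third principal component (12.8% of the variance) replicates 7 and 8 scored -14.5 and -10.6, while replicates 9 and 10 both scored above 10. The meninges markers had negative fold changes in 9 of 9, beside 11226 of all 18194 genes (median log2 fold change -0.499). Of these markers 0 were called lower and 1 was lower before adjustment, beside 0.791% and 8.01% of all genes. Their means were 7.29 and 7.58 in replicates 7 and 8, 8.64 and 8.60 in replicates 9 and 10, and 8.17 to 8.85 in wild type arrays. Within Nestin-Pex5-/- mice, Acox3 was higher in replicates 7 and 8 and Crot in replicates 9 and 10. Leaving out any 1 of these 4 arrays gave log2 fold changes of 0.26 to 0.35 for Acox3 and of 0.23 to 0.31 for Crot, none of which passed. The part of these cell type differences and of this division in the values of the 9 enzymes was not tested.

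The rest of the pathway was read from a list of 26 further genes of peroxisomal oxidation and its transporters, of which 23 were measured. By limma 0 were called higher and 0 lower, beside 3.98% and 0.791% of all genes. By the unadjusted p 3 were higher and 0 lower, beside 8.85% and 8.01% of all genes. Fold changes were positive in 10 and negative in 13, beside 6968 and 11226 of all genes. The median log2 fold change was -0.0278, beside -0.0334 over all genes. Acox2, the oxidase of bile acid precursors, had means of 5.68 in Nestin-Pex5-/- and 5.86 in wild type (log2 fold change -0.18, limma adjusted p = 0.490). Acaa1b, read by a dim probe set of its own, had means of 4.03 in Nestin-Pex5-/- and 4.18 in wild type (log2 fold change -0.15, adjusted p = 0.490).

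Among the brightest of that list, Abcd3, the half-transporter that brings branched acyl-CoAs into the peroxisome, averaged 10.79 in Nestin-Pex5-/- and 10.72 in wild type (log2 fold change 0.07, limma adjusted p = 0.578). Ech1, an isomerase that handles double bonds of unsaturated chains, averaged 10.16 in Nestin-Pex5-/- and 10.05 in wild type (0.12, adjusted p = 0.423). Named after their values were seen, Cat, the catalase that removes the hydrogen peroxide made by the oxidases, averaged 10.20 in Nestin-Pex5-/- and 9.89 in wild type (0.32, 95% interval 0.03 to 0.60, adjusted p = 0.247), and the groups overlapped. Without wild type replicate 4 its log2 fold change was 0.44 (adjusted p = 0.0136, with 0.00791 to 0.451 over all alternatives). Eci2, another isomerase of unsaturated chains, averaged 9.41 in Nestin-Pex5-/- and 9.21 in wild type (0.20, adjusted p = 0.0762), and Abcd2, a half-transporter of very long chains, 8.56 in Nestin-Pex5-/- and 8.32 in wild type (0.25, adjusted p = 0.112). In Eci2 and Abcd2, 2 of the 23 genes, every Nestin-Pex5-/- array lay above every wild type array, a share near the 6.63% of all genes. The mean of its probe sets gave Abcd2 a log2 fold change of 0.14 (adjusted p = 0.333), and without wild type replicate 4 Eci2 passed with 0.23 (adjusted p = 0.0300, with 0.0164 to 0.194 over all alternatives).

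Beta-oxidation in mitochondria, which takes over the chains that peroxisomes have shortened, was read from 19 of 20 listed genes. Of these 1 was called higher and 0 lower, beside 3.98% and 0.791% of all genes, with a median log2 fold change of 0.0430. It was Acadl, the long-chain acyl-CoA dehydrogenase, which averaged 9.89 in Nestin-Pex5-/- and 9.58 in wild type (log2 fold change 0.31, 95% interval 0.18 to 0.45, limma adjusted p = 0.0148). The call of Acadl was lost without Nestin-Pex5-/- replicate 8 and without wild type replicate 2 (adjusted p = 0.0534 in each), and when its probe sets were averaged, which gave 0.15 (adjusted p = 0.146, with 0.00496 the lowest over all alternatives). Named after their values were seen, Hadha, the alpha subunit of the trifunctional protein, averaged 9.71 in Nestin-Pex5-/- and 9.46 in wild type (0.25, adjusted p = 0.0808), and Acads, the short-chain acyl-CoA dehydrogenase, 7.30 in Nestin-Pex5-/- and 7.12 in wild type (0.18, adjusted p = 0.160). In 3 of the 19 genes, Acadl, Hadha and Acads, every Nestin-Pex5-/- array lay above every wild type array, beside 6.63% of all genes. Without wild type replicate 4 Hadha passed, with 0.30 (adjusted p = 0.0144, with 0.00778 to 0.207 over all alternatives). Acaa2, the mitochondrial thiolase, averaged 8.83 in Nestin-Pex5-/- and 9.05 in wild type (-0.23, adjusted p = 0.261), and the groups overlapped. Of the reference genes, Actb had a log2 fold change of 0.13 (adjusted p = 0.272) and Gapdh of -0.08 (adjusted p = 0.447).

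**Figure D4:**
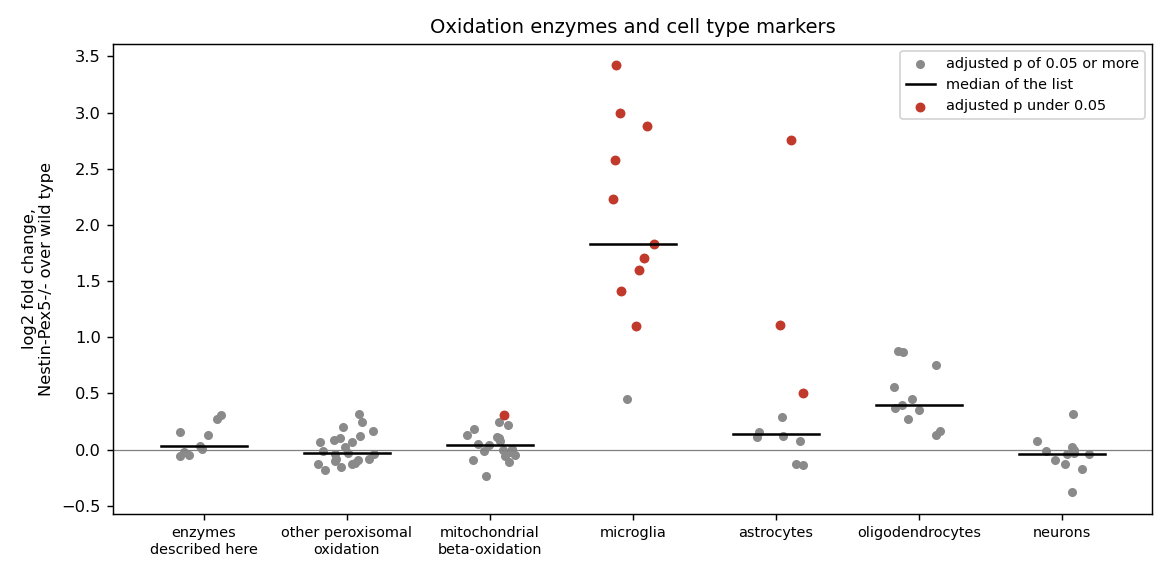
Log2 fold change (Nestin-Pex5-/- relative to wild type, vertical axis) of each measured gene of the 9 enzymes and of the comparison lists, with a line at each list's median; red points have a limma adjusted p under 0.05. The 9 enzymes lie between -0.06 and 0.31, while the 11 microglia markers lie between 0.45 and 3.42.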

How the data were processed

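Hypothalamus RNA of 4 Nestin-Pex5-/- and 4 wild type mice was read on 1 array per mouse. The deposited values are on the log2 scale and were made by the authors with RMA, as the submitters' processing notes name it without a version, a method that subtracts background, gives the arrays 1 distribution and combines the probes of a set. Values ran from 2.91 to 15.03, array medians lay between 6.70 and 6.84, and 0 columns were left unmapped. The number of arrays limits the precision.

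By the platform annotation, 34958 of 45101 probe sets belonged to 1 gene, 932 to several and 9211 to none. Symbols were brought to GRCm38 by gene identifier. The brightest single-gene probe set stood for a gene, with no filter on low values. Genotypes were compared with limma 3.58.1 (lmFit and eBayes, R 4.3.3), two-sided, with Benjamini-Hochberg adjustment over the 18194 genes and a threshold of 0.05; probe sets were fitted over the whole table. The labels call the mice biological replicates. A 95% confidence level was used. The fit was tested on simulated data.

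The enzymes, the lists and the tests were chosen with earlier results of these data known. Named were all 9 enzymes, Pex5, Pex7, Acox2, Acaa1b, from each list that marks no cell type up to 4 called genes or else the 2 with the highest level, and for the 2 enzymes with the smallest p the 3 genes most alike. Alternatives changed the filter, the probe set rule, the normalization, the variance model, array weights, the threshold, the table tested and the arrays. The enzymes' protein import signals were not analysed here.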

Additional observations from a re-analysis of the deposited data

How the results depend on the processing

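No enzyme was called lower under any alternative, and none higher except under array weights (2) and without wild type replicate 4 (1), so that leaving out 1 array gave 0 to 1. Fold changes of Phyh, Amacr, Acox3, Hsd17b4, Ehhadh, Acaa1a and Crot kept their direction throughout, between 0.14 and 0.43 for Acox3, 0.09 and 0.33 for Crot and 0.10 and 0.17 for Hsd17b4 (log2). Values near 0 changed sign: Scp2 was -0.03 with the mean of its probe sets, -0.02 without probe sets marked s or x and -0.02 centred on the median, and -0.06 to 0.07 leaving out 1 array. Acot8 was 0.02 scaled to the reference genes and -0.05 to 0.01 leaving out 1 array. Pex5 was -0.03 with the mean of its probe sets, -0.01 after another quantile normalization, -0.02 centred, -0.01 with array weights and -0.02 to 0.04 leaving out 1 array, and Pex7 was 0.02 scaled to the reference genes and -0.07 to 0.01 leaving out 1 array. The cause of these changes was not tested. Over all genes, 416 were called higher above the median level, where fewer genes were tested, 1351 with array weights and 467 at an adjusted p under 0.01, against 724. Lower were 90 scaled to the reference genes, 232 centred, 699 with array weights, 20 at an adjusted p under 0.01 and 47 to 331 leaving out 1 array, against 144. Amacr, Acox3 and Ehhadh lie below the median level and had no value there, nor had Acaa1a without probe sets marked s or x. No paired analysis was possible because the genotypes share no replicate number. No measure of signal over background was used for the dim probe sets of Amacr and Ehhadh, and 4 mice per genotype left intervals as wide as 1.01- to 1.52-fold (Acox3).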

Other observations

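Genes that followed Crot and Acox3 from array to array were looked up as a description, over 8 arrays that share their processing. Closest to Crot were Card6 (Pearson r = 0.951), Phkb (0.946) and Lix1 (0.925), of which Lix1 was called higher in Nestin-Pex5-/- hypothalamus (log2 fold change 0.41, limma adjusted p = 0.0410). Closest to Acox3 were Clip3 (0.986), Cpq (0.982) and Cenpx (0.982), none of them called. With the genotype means taken out, r was 0.842 to 0.929 for the genes near Crot and 0.973 to 0.979 for those near Acox3. Of all pairs of the enzymes, Phyh and Acox3 had the highest r within genotypes (0.93, 8 arrays), so this pair was picked by its value. With the genotype means left in, their r was 0.46. The log2 fold changes of Phyh and Acox3 were -0.06 and 0.31. Wild type replicate 4 was the highest wild type array in both.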
